A study of Mus musculus with 16 samples.

Results

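The subunits of the 5 oxidative phosphorylation complexes were followed in mouse dendritic cells grown from bone marrow and exposed to the bacterium Lactobacillus acidophilus NCFM. Members were the genes whose symbol starts with Nduf, Uqcr, Cox4 to Cox8 or Atp5, or is Sdha, Sdhb, Sdhc, Sdhd or Cyc1. The assembly factors named Ndufaf were left out. By this rule 83 of the 18193 genes measured were members, read by 170 of the 34945 probe sets that name a single gene. Complex I had 34 members, complex II 4, complex III 9, complex IV 19 and complex V 17. Members were further divided into a core list of 22 genes (Ndufs1, Ndufs3, Ndufs7, Ndufs8, Ndufv1, Ndufv2, the 4 Sdh genes, Cyc1, Uqcrfs1, Uqcrc1, Uqcrc2, Cox4i1, Cox5a, Cox5b, Atp5a1, Atp5b, Atp5c1, Atp5d and Atp5e), 52 other subunits called accessory here, and 9 genes with a dim probe set, meaning a mean intensity under 256.

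Marrow from the long hind leg bones of wild type C57BL/6 mice was cultured for 8 days with 15 ng/ml GM-CSF, harvested from a transfected myeloma line, and the non-adherent immature dendritic cells were collected. All 6 groups were then kept in fresh medium with 10 ng/ml GM-CSF. NCFM cells received 10 µg/ml of the bacterium and control cells did not, and RNA was taken after 4, 10 or 18 h. There were 3 NCFM arrays at each time, 3 control arrays at 4 h, and 2 control arrays at 10 h and at 18 h. The labels do not say whether replicates came from separate mice or cultures, so the p-values measure the spread between these arrays, which may be technical.

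Oxidative phosphorylation is the step of respiration that takes place in the inner mitochondrial membrane. Complex I oxidises NADH and complex II oxidises succinate, and both pass electrons to ubiquinone. Complex III hands the electrons to cytochrome c, complex IV reduces oxygen with them, and complex V, the ATP synthase, makes ATP from the proton gradient that complexes I, III and IV build. Dendritic cells and macrophages that sense bacteria are known for turning from respiration towards glycolysis, and nitric oxide and itaconate, which such cells make, inhibit complexes IV and II. Most subunits are encoded in the nucleus and are members here. The 13 subunits encoded by mitochondrial DNA are not analysed here, because 0 of them had a single-gene probe set. They include the catalytic subunits of complex IV, so its 3 genes on the core list are nuclear-encoded subunits around them, and the ring genes Atp5g1, Atp5g2 and Atp5g3 count as accessory.

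Genes of the subunits are known for sharing promoter elements bound by Nrf1, by ETS-family factors such as Gabpa, and by Yy1. RefSeq promoter windows of 300 bases on GRCm38.p6 (250 before the transcription start and 50 after it) were matched by symbol to 67 of the 83 members, as 72 windows. The letters CGCATGCG (Nrf1, the same on both strands) stood in 8 of the 72 windows (11.1%), against 1.87% of all 32851 windows. The letters CCGGAAG on either strand (ETS) stood in 17 (23.6%), against 8.86%, and AAGATGGCG on either strand (Yy1) in 6 (8.33%), against 1.4%. A window with any of the 3 motifs belonged to 9 of 31 genes of complex I, 2 of 3 of complex II, 3 of 5 of complex III, 3 of 13 of complex IV and 8 of 15 of complex V. Such a window was found for 9 of the 21 matched members that were lower in NCFM cells at some time and for 16 of the 46 others. A match is a run of letters and not a measured binding site. As examples of promoters of members that fell, chosen after their values were seen, the gene-free bases before the start of Ndufa8 (134 bases, chr2:36049339-36049472, minus strand), Sdhd (51 bases, chr9:50603850-50603900, minus strand) and Atp5g2 (250 bases, chr15:102671048-102671297, minus strand) are given 5′ to 3′. Capitals mark the Nrf1 motif in Ndufa8 and Atp5g2, which begins 9 and 41 bases before the start, and the ETS motif in Sdhd, which begins 46 bases before it. The stretches of Ndufa8 and Sdhd are cut where the neighbouring genes Morn5 and Timm8b begin.
Ndufa8: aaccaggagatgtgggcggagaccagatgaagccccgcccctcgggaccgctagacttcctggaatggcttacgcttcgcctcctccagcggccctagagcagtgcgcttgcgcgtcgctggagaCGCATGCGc
Sdhd: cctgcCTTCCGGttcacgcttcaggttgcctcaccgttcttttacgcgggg
Atp5g2: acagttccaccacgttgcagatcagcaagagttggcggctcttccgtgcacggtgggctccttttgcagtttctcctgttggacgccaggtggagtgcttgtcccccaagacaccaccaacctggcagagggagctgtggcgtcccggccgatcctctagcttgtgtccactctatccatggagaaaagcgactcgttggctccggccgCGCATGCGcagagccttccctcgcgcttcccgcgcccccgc

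The deposited values are array intensities that had already been brought to a common scale, with array medians between 162 and 167, and intensities ran from 42 to 31573. The third NCFM array at 4 h stood apart in these genes. Its 83 members had a median of -1.37 log2 below the mean of the other 2 NCFM 4 h arrays, against 0.02 for all genes, and 50 of 83 were lower there by more than 1 log2, against 1.80% of all genes. The main counts, medians and calls at 4 h are therefore given with and without it. Its 3'/5' ratios of the control transcripts, a measure of RNA integrity, were -0.12 log2 for Gapdh and 0.10 log2 for actin. Over all arrays, this one included, they ran from -0.15 to 0.08 and from 0.09 to 0.63. The array thus lay towards the lower end of both ranges. Summed markers of dendritic cells (12 of 13 measured, Itgae and Xcr1 dim) lay between 55481 and 75758 on all arrays. At 18 h they were 69899 to 70470 in control cells and 71727, 60721 and 55481 in NCFM cells. Of these markers 1 was lower at 10 h and 3 at 18 h, and 0 were higher. B cell, NK cell, erythroid and fibroblast markers were all dim. Summed macrophage and monocyte markers (9 of 11 measured) and summed eosinophil markers (3 of 3) overlapped between the groups at each time. Of the 9 macrophage and monocyte genes 2 were lower and 1 higher at 4 h, 2 and 2 at 10 h, and 3 and 1 at 18 h. Their sum on the third NCFM 4 h array was 84220, against 56743 and 69033 on its partners. At 18 h 1 eosinophil marker was lower, with a list median of -0.65. Mast cell and basophil markers (5 of 5, 4 dim) summed to 941 to 1010 in control and 838 to 931 in NCFM cells at 10 h and to 940 to 996 and 677 to 774 at 18 h. T cell markers (5 of 6, 3 dim) summed to 979 to 1014 in control and 1041 to 1074 in NCFM cells at 4 h and to 1027 to 1050 and 1099 to 1145 at 18 h. Summed neutrophil markers (8 of 10 measured, Mpo and Cxcr2 dim) moved with the groups. At 4 h they were 28557 to 41080 in control cells and 31615, 35872 and 7888 in NCFM cells, the lowest being the third array. At 10 h they were 39219 to 47597 in control and 13065 to 34170 in NCFM cells, and at 18 h 22930 to 25660 and 5705 to 17127. Plasmacytoid dendritic cell markers (5 of 5 measured, 2 dim) summed to 2782 to 3849 in control cells and to 10849 to 12222 at 10 h and 10326 to 13556 at 18 h in NCFM cells. These sums did not reflect the list as a whole. At 10 h 2 of the 5 genes were higher and 0 lower, with a list median of 0.17 log2. At 18 h 1 was higher and 1 lower, with a median of 0.13. The part of these markers in the results was not tested, and in bulk RNA fewer cells of a type and less RNA per cell cannot be told apart.

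**Figure D1:**
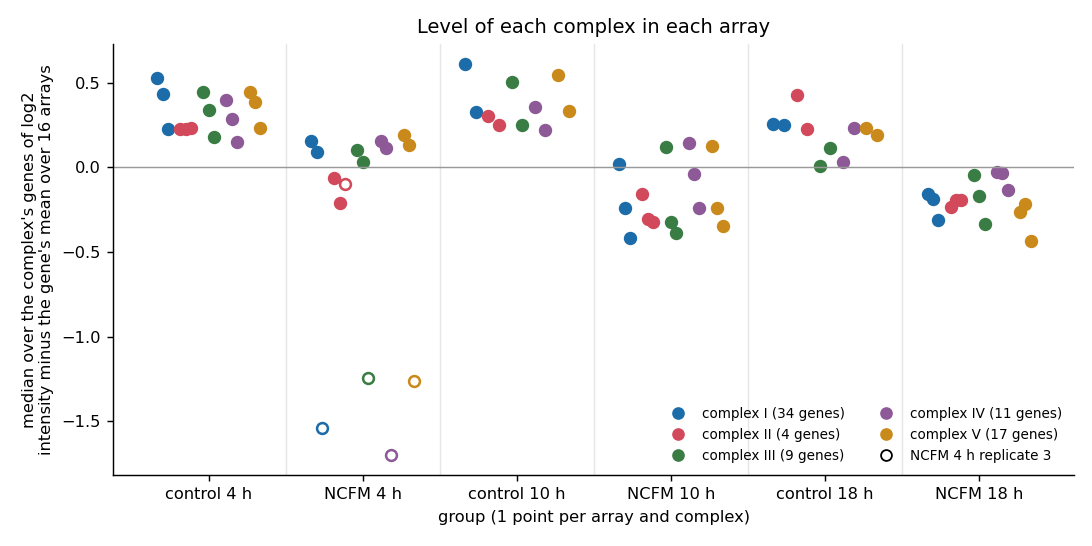
Median level of the members of each complex on each of the 16 arrays, in log2 units relative to each gene's mean over arrays, with complex IV shown for its 11 genes that were not dim. The third NCFM 4 h array lies far below its partners in complexes I, III, IV and V (-1.54, -1.24, -1.70 and -1.26) but not in complex II (-0.10).

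At 10 and 18 h some subunits of each of the 5 complexes were lower in NCFM than in control cells, and 1 of the 2 probe sets of Cox8c was higher. At 10 h the members' median log2 change was -0.58, against 0.01 for all genes, and 21 of 83 were lower at an adjusted p under 0.05 in the limma fit over all genes (25.3%, against 16.5% of all genes). At 18 h the median was -0.35, against 0.00 for all genes, and again 21 were lower (25.3%, against 16.3%). The arrays of the groups did not overlap for 62 lower members at 10 h and 43 at 18 h, against 28.9% and 26.1% of all genes. Members that were higher numbered 2 at 10 h (Cox8c and the dim Ndufb4) and 1 at 18 h (Cox8c), against 8.21% and 7.4% of all genes. The summed neutrophil markers were likewise below the control range on every NCFM array at both times, although 2 of the 8 genes passed at 10 h and 1 at 18 h.

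The third NCFM 4 h array also bears on the calls at 10 and 18 h, because all groups share 1 estimate of the spread. Without it the same medians stood, 47 members were lower at 10 h (56.6%, against 17.5% of all genes) and 34 at 18 h (41.0%, against 17.1%), and these included all 21 called with it at each time. Fewer members passed without the first control array at 10 h (6) or the third NCFM array at 10 h (13). At 18 h fewer passed without the first control array (7), the second NCFM array (13) or the third NCFM array (11). The lower direction held within the replicate numbers: the median of NCFM 10 h minus control 10 h was -0.47 for number 1 and -0.51 for number 2, and at 18 h it was -0.34 and -0.38.

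At 4 h the size of the difference depended on that array. With it, the median log2 change was -0.69, against -0.01 for all genes, 9 members were lower (10.8%, against 13.1%) and 38 did not overlap (22.7% of all genes). That share of calls was no larger than among all genes. Without it the median was -0.21 and 8 members were lower (9.64%, against 10.6%), of which 6 were shared, while 42 did not overlap (28.2% of all genes). Within replicate numbers the median at 4 h was -0.28 for number 1, -0.25 for number 2 and -1.47 for number 3. A fit blocked on replicate number gave 28 lower members, all 9 included, against 19.3% of all genes. The 19 it added were Atp5d, Atp5g2, Atp5h, Atp5o, Atp5pb, Cox4i1, Ndufa4, Ndufa6, Ndufb2, Ndufb5, Ndufb8, Ndufb9, Ndufb11, Ndufc2, Ndufs1, Ndufs8, Ndufv2, Sdhc and Uqcr10. The count was 1 without the second control array at 4 h, 5 without the third control array and 18 without the first NCFM array. Cox8c was the 1 member that was higher at 4 h, against 5.27% of all genes.

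**Figure D2:**
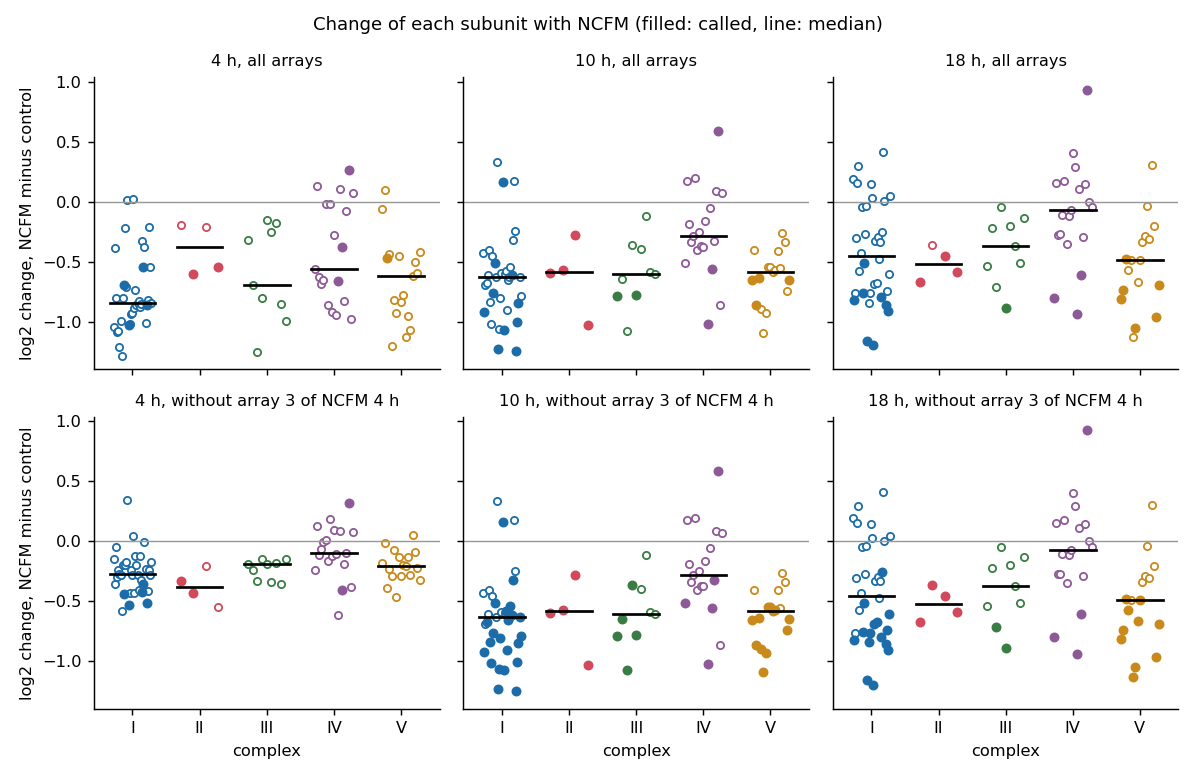
Log2 change of each member (NCFM minus control) by complex at 4, 10 and 18 h, with all arrays in the upper row and without the third NCFM 4 h array in the lower row; filled points passed an adjusted p of 0.05 and lines are medians. At 4 h the median of complex I moves from -0.84 to -0.28 when that array is left out, and at 10 and 18 h the positions stay and more points pass.

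Members of complex I that fell included subunits of its electron path. Of 34 members 9 were lower at 10 h and 8 at 18 h, with medians of -0.63 and -0.45, and 22 and 15 passed without the third NCFM 4 h array. Groups did not overlap for 28 lower members at 10 h and 20 at 18 h. Counts by complex and class stand against the following shares of all genes at 4, 10 and 18 h. Lower calls made up 13.1%, 16.5% and 16.3%, or 10.6%, 17.5% and 17.1% without the third NCFM 4 h array. Lower genes whose groups did not overlap made up 22.7%, 28.9% and 26.1%. Ndufv1, which holds the flavin where NADH is oxidised, read 2005 and 1756 in control cells at 10 h and 1132, 1017 and 986 in NCFM cells. At 18 h it read 2242 and 1623 in control and 1138, 1001 and 922 in NCFM cells. Every NCFM array was below every control array at both times. Ndufv1 was thus 1.80-fold lower at 10 h (log2 change -0.85 ± 0.13 SE, adjusted p = 0.000557) and 1.88-fold lower at 18 h (-0.91 ± 0.13, adjusted p = 0.00037), and both calls stood in every alternative tried. At 4 h the values were 1842, 1669 and 1657 in control and 1418, 1505 and 1532 in NCFM cells, which did not overlap but did not pass (-0.21 ± 0.11, adjusted p = 0.23).

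Ndufs7, an iron-sulfur subunit next to the ubiquinone site, fell at all 3 times. At 4 h it read 2682, 2678 and 2362 in control cells and 1645, 1974 and 867 in NCFM cells (-0.86 ± 0.23, adjusted p = 0.0191). Without the last of these arrays the change was smaller and still passed (-0.51 ± 0.11, adjusted p = 0.0122). At 10 h it read 2811 and 2573 against 1276, 1126 and 1018, a 2.37-fold difference (-1.24 ± 0.25, adjusted p = 0.00361), the lowest of the complex at that time. Groups were separate at every time. At 18 h it read 2720 and 2516 against 1355, 1594 and 1395 (-0.86 ± 0.25, adjusted p = 0.0274).

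Ndufs1, the largest iron-sulfur subunit, was measured at 949 and 810 in control and 566, 551 and 607 in NCFM cells at 10 h (-0.61 ± 0.13, adjusted p = 0.00395). At 18 h it was measured at 1046 and 881 against 487, 574 and 608 (-0.79 ± 0.13, adjusted p = 0.000791). Its 4 h change passed without the third NCFM array (-0.43 ± 0.11, adjusted p = 0.0281) and not with it (-0.33 ± 0.11, adjusted p = 0.0638), although it did with the replicate block (adjusted p = 0.0251). The third array, at 866, was above its partners at 758 and 659. Ndufs8, an iron-sulfur subunit, fell at 10 h (-1.01 ± 0.34, adjusted p = 0.0461), a call lost in 13 of 28 alternatives. Ndufs3, a core subunit of the same arm, was called at 4 h (-0.55 ± 0.13, adjusted p = 0.0128), and at all 3 times without the third NCFM 4 h array (adjusted p = 0.0155, 0.0155 and 0.0439). Ndufv2, the partner of Ndufv1, had changes of -0.55, -0.63 and -0.60 at 4, 10 and 18 h, which did not pass. It was called without the third NCFM 4 h array at 10 h (adjusted p = 0.0366) and 18 h (adjusted p = 0.0441), and with the replicate block at all 3 times (-0.55, -0.51 and -0.48, adjusted p = 0.0157, 0.0366 and 0.0451).

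Among the accessory subunits of complex I, Ndufb10 read 2023, 2113 and 1791 in control cells at 4 h and 1363, 1362 and 487 in NCFM cells. At 10 h it read 2249 and 1803 against 1031, 848 and 727, and at 18 h 1736 and 1743 against 924, 762 and 674. The groups were separate throughout, and Ndufb10 fell at all 3 times (-1.03 ± 0.32, -1.23 ± 0.35 and -1.16 ± 0.35, adjusted p = 0.0409, 0.0239 and 0.0325). Leaving out the array at 487 made the 4 h change -0.53 ± 0.16 (adjusted p = 0.0449). The 4 h call was lost in 12 of 28 alternatives, 8 of which leave out 1 array. Ndufb5, a subunit of the membrane arm, fell at 10 h (-1.07 ± 0.34, adjusted p = 0.0368) and 18 h (-1.19 ± 0.34, adjusted p = 0.0232). Ndufa8 (-0.69, -0.76 and -0.76; at 4 h -0.44 without the third NCFM array, adjusted p = 0.0168) was called at each time, and Ndufa9 (-0.51 and -0.51) and Ndufa10 (-0.92 and -0.82) at 10 and 18 h. These last 3 are named after their values were seen. Not every accessory subunit was low: Ndufs4 had 0.41 ± 0.27 at 18 h (adjusted p = 0.315) and Ndufb1 0.33 at 10 h (adjusted p = 0.518).

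The largest changes of complex I at 4 h rested on the third NCFM array. Ndufa3, a small accessory subunit, read 6397, 6933 and 6727 in control cells and 5182, 5891 and 786 in NCFM cells. Its change was -1.21 ± 0.60 with that array (adjusted p = 0.193) and -0.27 ± 0.31 without it (adjusted p = 0.63). Ndufa6 had -1.28 ± 0.45 with it (adjusted p = 0.0684) and -0.58 ± 0.23 without it (adjusted p = 0.12). Neither passed in these fits, and the replicate block called Ndufa6 (adjusted p = 0.0356) but not Ndufa3 (adjusted p = 0.126). Over the complex, 4 members were lower at 4 h with the array (median -0.84, 17 not overlapping) and 5 without it (median -0.28). At 18 h Ndufa3 overlapped between groups, with the first control array at 2544 and the second at 7110 against 4892, 5741 and 5102 in NCFM cells.

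**Figure D3:**
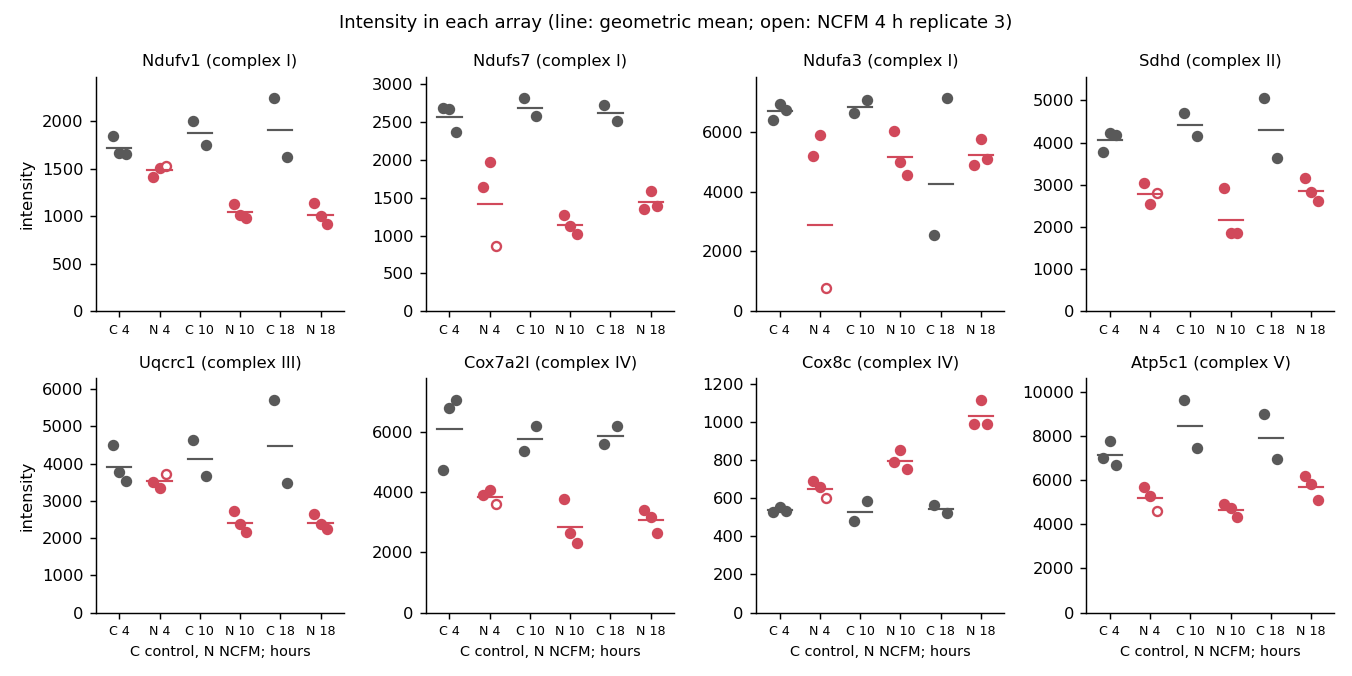
Intensity (linear axis) of 8 members on every array by group, with the group's geometric mean as a line and the third NCFM 4 h array as an open point. Ndufv1, Ndufs7, Sdhd, Uqcrc1, Cox7a2l and Atp5c1 lie lower in NCFM cells at 10 and 18 h, Cox8c lies higher, and in Ndufa3 the open point at 786 is far from all others.

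All 4 subunits of complex II, which is also the succinate dehydrogenase of the citric acid cycle, fell at 10 h. With the third NCFM 4 h array 3 of 4 fell at 18 h and 2 at 4 h, with medians of -0.37, -0.58 and -0.52 at 4, 10 and 18 h. Leaving that array out gave 2, 4 and 4 lower members at 4, 10 and 18 h and a 4 h median of -0.38. Groups did not overlap for 3, 4 and 4 members. Sdha, the flavoprotein that oxidises succinate, read 2664 and 2912 in control cells at 10 h and 1827, 1847 and 1855 in NCFM cells (-0.60 ± 0.11, adjusted p = 0.00248). At 18 h it read 2949 and 3086 against 1755, 1868 and 2081 (-0.67 ± 0.11, adjusted p = 0.0012). The groups were separate at both times. At 4 h it read 2779, 2782 and 3015 in control and 2304, 2242 and 3029 in NCFM cells, so the third array was at the control level; the change passed without that array (-0.33 ± 0.07, adjusted p = 0.0117) and not with it (-0.19 ± 0.10, adjusted p = 0.223).

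Sdhb, the iron-sulfur protein, fell at 4 h, where it read 3212, 3112 and 2908 in control and 2485, 2087 and 1601 in NCFM cells (-0.60 ± 0.14, adjusted p = 0.0106). That was the 1 call at 4 h that stood with each array left out in turn. At 10 h Sdhb read 3769 and 3191 against 2428, 2325 and 2260 (-0.57 ± 0.16, adjusted p = 0.0191). At 18 h, with 3984 and 3307 against 2493, 3036 and 2982, the change was -0.36 ± 0.16 (adjusted p = 0.12), and it passed without the third NCFM 4 h array (adjusted p = 0.0432).

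Sdhc and Sdhd anchor complex II in the membrane, and both fell at 10 and 18 h. Sdhc read 2125 and 2160 against 1894, 1762 and 1645 at 10 h (-0.28 ± 0.08, adjusted p = 0.0195) and 2494 and 2120 against 1592, 1721 and 1738 at 18 h (-0.45 ± 0.08, adjusted p = 0.00131). Sdhd read 4708 and 4149 against 2913, 1866 and 1863 at 10 h, a 2.04-fold difference (-1.03 ± 0.19, adjusted p = 0.00193), and 5046 and 3646 against 3154, 2829 and 2606 at 18 h (-0.59 ± 0.19, adjusted p = 0.04). In both genes the groups were separate at these times. At 4 h Sdhd read 3771, 4228 and 4182 in control and 3049, 2541 and 2793 in NCFM cells. Its change of -0.54 passed with the third array (adjusted p = 0.0428) but not without it (adjusted p = 0.0928). This 4 h call was lost in 13 of 28 alternatives, 10 of which leave out 1 array. The 18 h call of Sdhd was lost in 9 of 28, among them the mean of its probe sets.

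In complex III 2 of 9 members fell at 10 h, 1 at 18 h and 0 at 4 h, against 16.5%, 16.3% and 13.1% of all genes. Medians were -0.69, -0.60 and -0.37 at 4, 10 and 18 h. Without the third NCFM 4 h array 5 and 2 were lower at 10 and 18 h, 0 at 4 h, and the 4 h median was -0.19. Uqcrc1, a core protein of the matrix side, read 4647 and 3677 in control cells and 2725, 2377 and 2166 in NCFM cells at 10 h (-0.78 ± 0.18, adjusted p = 0.00877). At 18 h it read 5718 and 3492 against 2659, 2366 and 2249 (-0.89 ± 0.18, adjusted p = 0.00432). Its groups were separate at 10 and 18 h and overlapped at 4 h, where control cells read 4488, 3773 and 3522 and NCFM cells 3520, 3356 and 3711 (-0.15 ± 0.16, adjusted p = 0.592).

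Cyc1, the cytochrome c1 that passes electrons to cytochrome c, fell at 10 h, from 3935 and 3031 in control to 2251, 1937 and 1834 in NCFM cells (-0.79 ± 0.22, adjusted p = 0.023). At 18 h the second control array, at 2603, lay within the NCFM range of 2191 to 2671, and the change of -0.53 did not pass (adjusted p = 0.109), but did with the replicate block (-0.44, adjusted p = 0.0464). The Rieske iron-sulfur protein Uqcrfs1 had -0.18, -0.12 and -0.37 and Uqcrc2 -0.25, -0.39 and -0.20, none of them past the threshold, although the replicate block called Uqcrc2 at 10 h (-0.44, adjusted p = 0.0134). The small subunit Uqcr11 read 2829, 2680 and 2185 in control cells at 4 h and 1856, 2226 and 295 in NCFM cells. It did not pass with all arrays and did without the third one, at 10 h (-1.07 ± 0.23, adjusted p = 0.00552) and 18 h (-0.71 ± 0.23, adjusted p = 0.0418).

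Complex IV had the smallest share of members called at 10 h together with the 1 member that went up at every time; whether its change differs from that of the other complexes was not tested. Of 19 members 2, 2 and 3 were lower at 4, 10 and 18 h, against 13.1%, 16.5% and 16.3% of all genes. With all arrays, and with the dim members counted, the share called was thus no larger than among all genes at any time. Medians were -0.56, -0.28 and -0.07, or -0.69, -0.34 and -0.27 over the 11 members that were not dim. When the third NCFM 4 h array was left out, 1, 4 and 3 of the 19 were lower, against 10.6%, 17.5% and 17.1% of all genes. The share at 10 h was then larger than among all genes. The median of the 11 at 4 h was -0.12 without that array. Cox7a2l, a factor known from supercomplexes of complexes III and IV, of which C57BL/6 mice are known to carry a shortened form, read 4728, 6818 and 7080 in control cells at 4 h and 3921, 4065 and 3601 in NCFM cells. At 10 h it read 5357 and 6213 against 3793, 2656 and 2299, and at 18 h 5594 and 6194 against 3414, 3193 and 2663. Its groups were separate at all times, and Cox7a2l fell at 4 h (-0.66 ± 0.19, adjusted p = 0.0267), at 10 h (-1.02 ± 0.21, adjusted p = 0.00374, 2.02-fold) and at 18 h (-0.94 ± 0.21, adjusted p = 0.00618). The 4 h call was lost without the third NCFM array (adjusted p = 0.0818).

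Cox4i1, the common isoform of the regulatory subunit 4, fell at 18 h, from 11176 and 11282 in control to 6622, 6731 and 6021 in NCFM cells (-0.80 ± 0.23, adjusted p = 0.0254). At 10 h it read 11180 and 11028 against 9066, 7676 and 6819 and passed without the third NCFM 4 h array (-0.51 ± 0.10, adjusted p = 0.00374) but not with it (adjusted p = 0.131). That array read 4770, against 8936 and 9875 in its partners. Cox7c was also lower at each time (-0.38 ± 0.10, -0.56 ± 0.11 and -0.61 ± 0.11, adjusted p = 0.0208, 0.00356 and 0.00213), but the probe set used is dim, between 136 and 250 on all arrays. Cox5a and Cox5b, subunits that every cell uses, had -0.19 and -0.34 at 10 h and -0.27 and -0.27 at 18 h and passed at no time. Their 4 h changes of -0.63 and -0.69 became -0.11 and -0.06 without the third NCFM array. The tissue isoforms Cox4i2, Cox6a2, Cox6b2, Cox7a1, Cox7b2 and Cox8b were dim and passed at no time against control cells.

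Cox8c, an isoform of subunit 8 known mainly from testis, was higher in NCFM cells at every time. It read 526, 554 and 534 in control and 690, 656 and 601 in NCFM cells at 4 h. At 10 h it read 481 and 583 against 787, 853 and 752, and at 18 h 563 and 520 against 991, 1116 and 986. No NCFM array overlapped a control array. The changes were 0.27 ± 0.08 (adjusted p = 0.0424), 0.59 ± 0.09 (adjusted p = 0.000769) and 0.93 ± 0.09 (adjusted p = 3.75e-05). They come from a probe set whose name marks possible cross-hybridisation (the suffix x), and the other probe set of Cox8c had 0.13, 0.18 and 0.13 and passed at no time (adjusted p = 0.308, 0.172 and 0.352), so the rise of this gene is uncertain.

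Ndufa4, counted with complex IV, had -0.98 ± 0.43 at 4 h (adjusted p = 0.144; -0.38 without the third NCFM array, adjusted p = 0.473; 0.0481 with the replicate block), -0.86 ± 0.48 at 10 h (adjusted p = 0.216) and 0.00 ± 0.48 at 18 h. Its paralogue AA467197 (Nmes1), which is no member by the rule and is known to be induced in inflammatory macrophages, rose at each time. AA467197 read 8027 to 11133 in control and 12856 to 20126 in NCFM cells at 4 h, 9497 to 11323 and 22214 to 25748 at 10 h, and 4982 to 8958 and 22536 to 24653 at 18 h. The ranges were separate, and the changes were 0.75 ± 0.21 (adjusted p = 0.0255), 1.24 ± 0.23 (adjusted p = 0.00221) and 1.81 ± 0.23 (adjusted p = 0.00019). At 4 h its change was 0.91 ± 0.21 without the third NCFM array (adjusted p = 0.0157).

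Members of complex V that fell included parts of its catalytic head, its stalks and its membrane ring. Of 17 members 1, 4 and 6 fell at 4, 10 and 18 h, against 13.1%, 16.5% and 16.3% of all genes. Medians were -0.62, -0.58 and -0.49, and groups did not overlap for 9, 15 and 11. Leaving out the third NCFM 4 h array gave 0, 12 and 10 lower members and a 4 h median of -0.21. Atp5c1, the rotating central shaft, read 7003, 7770 and 6697 in control cells at 4 h and 5665, 5288 and 4612 in NCFM cells. At 10 h it read 9641 and 7440 against 4923, 4736 and 4350, and at 18 h 8987 and 6971 against 6189, 5808 and 5076. Its groups were separate at all times, and Atp5c1 fell at 4 h (-0.47 ± 0.13, adjusted p = 0.0225), at 10 h (-0.86 ± 0.14, adjusted p = 0.000929, 1.82-fold) and at 18 h (-0.48 ± 0.14, adjusted p = 0.0267). The 4 h call was lost without the third NCFM array (adjusted p = 0.0864).

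Atp5a1, the alpha subunit of the head, fell at 10 h, with 7802 and 7030 in control and 5889, 4207 and 4207 in NCFM cells (-0.65 ± 0.19, adjusted p = 0.0247). At 18 h it read 9661 and 6602 against 5311, 4196 and 4246 (-0.81 ± 0.19, adjusted p = 0.00862), again without overlap. Atp5b, the catalytic beta subunit, fell at 18 h, with 10002 and 6456 in control and 5771, 4607 and 4229 in NCFM cells (-0.74 ± 0.21, adjusted p = 0.0254). At 4 h neither passed (-0.06 ± 0.17 and 0.09 ± 0.19), and the third NCFM array, at 8416 and 9097, was above its partners. Atp5d, of the central stalk, fell at 10 h (-0.64 ± 0.21, adjusted p = 0.0428), a call lost in 10 of 28 alternatives. Atp5pb of the peripheral stalk, named after its values were seen, fell at 10 h (-0.65 ± 0.16, adjusted p = 0.01) and 18 h (-0.69 ± 0.16, adjusted p = 0.00752), and Atp5o, which joins that stalk to the head, fell at 18 h (-0.96 ± 0.29, adjusted p = 0.0309).

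The 3 genes Atp5g1, Atp5g2 and Atp5g3 encode the same mature subunit c of the membrane ring and had changes of the same sign. At 10 h the changes were -1.09, -0.93 and -0.55 and at 18 h -1.13, -1.05 and -0.67. With all arrays 1 of these 6 passed, Atp5g2 at 18 h (adjusted p = 0.0444), a call lost in 15 of 28 alternatives. Without the third NCFM 4 h array all 6 did, with adjusted p = 0.00837, 0.00308 and 0.0064 at 10 h and 0.00733, 0.00153 and 0.00214 at 18 h. Atp5e, a small subunit of the stalk, read 4268, 4391 and 648 in NCFM cells at 4 h against 5775, 5642 and 4563 in control cells. Its change of -1.20 ± 0.58 became -0.29 ± 0.29 without the array at 648, and neither passed (adjusted p = 0.184 and 0.587).

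Across times the calls fell on partly the same genes. The comparisons use different arrays but share 1 estimate of each gene's spread, so calls at different times are not independent. The matching overlap among all genes is not given here. Of the 21 members lower at 10 h and the 21 lower at 18 h, 17 were common to both lists (Atp5a1, Atp5c1, Atp5pb, Cox7a2l, Cox7c, Ndufa8, Ndufa9, Ndufa10, Ndufb5, Ndufb10, Ndufs1, Ndufs7, Ndufv1, Sdha, Sdhc, Sdhd and Uqcrc1). Of these, 7 were also lower at 4 h: Atp5c1, Cox7a2l, Cox7c, Ndufa8, Ndufb10, Ndufs7 and Sdhd. In all, 26 members were lower at some time, or 49 without the third NCFM 4 h array. Core-list and accessory subunits had medians of -0.62 and -0.60 at 10 h and -0.58 and -0.32 at 18 h, and 13 of 22 genes on the core list were lower at 10 h and 11 at 18 h, against 7 and 9 of 52 accessory subunits. Without the third NCFM 4 h array 17 and 16 core and 29 and 17 accessory subunits passed. All 22 core subunits had a negative change at 10 and at 18 h, whether or not they passed. Of the 74 members that were not dim, those without a negative change were Cox8c, Ndufb1 and Ndufs4 at 10 h and, at 18 h, Atp5md, Cox7a2, Cox8c, Ndufa1, Ndufa2, Ndufa3, Ndufa4, Ndufb3, Ndufs4, Ndufs5 and Ndufv3.

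The low values of the third NCFM 4 h array were spread unevenly over the classes. All 52 accessory subunits were below the mean of the partner arrays, by a median of -1.88 log2, and 44 by more than 1. Of the 22 genes on the core list 12 were below it, by a median of -0.32 over all 22, and 5 by more than 1. The lowest were Ndufa3 (-2.81), Uqcr11 (-2.78), Atp5j2 (-2.77), Atp5e (-2.74) and Ndufa1 (-2.70). Genes on the core list such as Cox5b (-1.88), Cox5a (-1.54), Ndufs8 (-1.21) and Ndufs7 (-1.06) were low as well, whereas Sdha (0.41), Atp5a1 (0.35), Atp5b (0.31) and Ndufs1 (0.29) were higher than in the partners. The first control array at 18 h set against the second had a smaller split of the same sign, with medians of -0.25 for accessory and 0.32 for core subunits and -1.48 for Ndufa3. On the third NCFM array summed neutrophil markers were the lowest of the 4 h arrays (7888) and summed macrophage and monocyte markers the highest (84220). The part of either in its values was not tested.

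**Figure D4:**
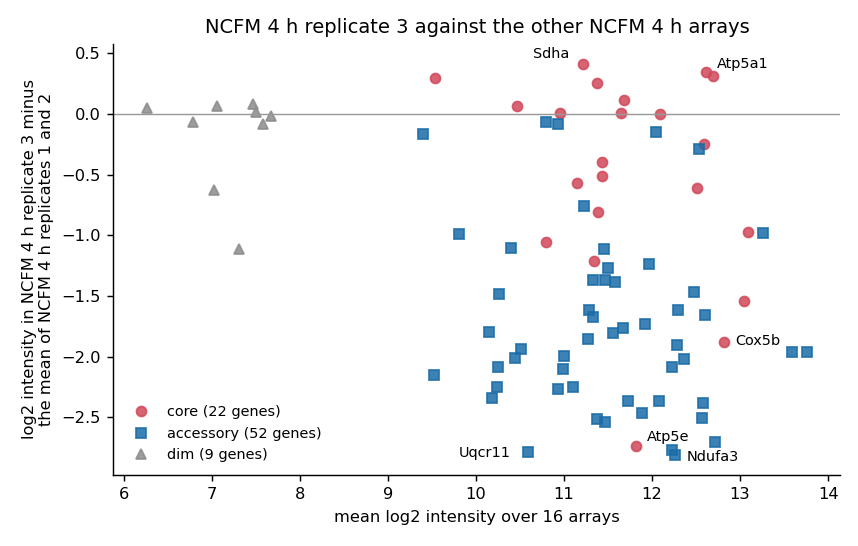
Difference of the third NCFM 4 h array from the mean of the other 2 NCFM 4 h arrays (log2) for each member, against the member's mean log2 intensity over all arrays, coloured by class. Accessory subunits (median -1.88) lie below most core subunits (median -0.32). Dim genes have a median of -0.01, with Cox7a1 at -1.12 and Cox6b2 at -0.63.

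Over the course of exposure, the difference between NCFM and control cells was larger at 18 h than at 4 h for 2 members in the limma fit, a test that uses the same groups as the comparisons at each time. Ndufv1 had -0.21 at 4 h and -0.91 at 18 h, a difference of -0.69 ± 0.17 (adjusted p = 0.0486). Cox8c had 0.27 and 0.93, a difference of 0.66 ± 0.12 (adjusted p = 0.0147). Ndufv1 thus made up the 1 lower call, against 2.22% of all genes, and Cox8c the 1 higher call, against 1.19%. Without the third NCFM 4 h array Cox8c alone passed. The members' median difference was 0.22 with that array and -0.15 without it, so its sign followed the array. In the blocked fit 7 members passed: Ndufv1, Ndufs1, Sdha, Uqcrc1, Atp5a1 and Atp5b went lower, against 5.93% of all genes, and Cox8c higher, against 3.23%. Each of these 6 lower genes is on the core list. In the same order, the third NCFM 4 h array was above the mean of its partners in them by 0.07, 0.29, 0.41, 0.11, 0.35 and 0.31 log2. All 52 accessory subunits were below that mean on this array. Its part in which genes passed was not tested.

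Between 4 and 10 h 0 members passed in limma, against 0.308% of all genes lower and 0.198% higher, and 4 had an unadjusted p under 0.05 in each direction. The block added Ndufv1 (lower, against 1.55% of all genes). The median was 0.12, or -0.33 without the third NCFM 4 h array. Within NCFM cells, 18 h against 4 h gave 7 lower members (Atp5a1, Atp5b, Ndufs1, Ndufv1, Sdha, Sdhc and Uqcrc1, against 8.49% of all genes) and 3 higher (Cox6a2, Cox8c and Sdhb, against 7.71%). Ndufv1 had -0.55 ± 0.11 (adjusted p = 0.00627) there. Cox8c had 0.67 ± 0.08 (adjusted p = 0.000241) by its probe set with the suffix x. Both calls stood in every alternative. Without the third array at 4 h, 16 were lower, 2 of them (Ndufv1 and Sdha) among the 7, and 1 was higher, against 6.78% and 6.32% of all genes, and the median moved from 0.07 to -0.29. Fewer passed without the second NCFM array at 18 h (3) or the third (4). In control cells, 18 h against 4 h gave 0 members lower and 0 higher, as for all genes (0%), with 1 unadjusted p under 0.05 in each direction and a median of -0.15.

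Genes that work with the complexes were counted on lists chosen from textbook knowledge, and their counts stand against the same shares of all genes as those of the members. Of 48 assembly factors measured, out of 51, 17 were lower and 3 higher at 4 h, 20 and 4 at 10 h, and 18 and 3 at 18 h, with medians of -0.41, -0.54 and -0.34. With the third NCFM 4 h array left out the counts were 12 and 2, 25 and 4, and 19 and 5, and the 4 h median was -0.22. Sco1, which delivers copper to complex IV, rose at each time, from 256 to 281 in control to 797 to 971 in NCFM cells at 10 h (1.72 ± 0.13, adjusted p = 5.21e-06), without overlap. Cox18, which inserts a complex IV subunit into the membrane, rose too (0.56, 0.73 and 0.47). Sdhaf1, which matures the iron-sulfur subunit of complex II, fell (-1.28, -0.93 and -0.62), as did the copper-handling Coa6 (-1.20, -1.28 and -0.82) and the complex I factor Ndufaf4 (-0.73, -1.20 and -1.15). At 4 h the third NCFM array moved none of these 5 calls but that of Ndufaf4, which was lost without it (-0.61, adjusted p = 0.139). Lrpprc, which stabilises mitochondrial mRNAs, had -0.07 at 4 h, which did not pass, and fell at 10 h (-0.87) and 18 h (-1.10).

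Of 17 citric acid cycle enzymes measured, out of 18, 3 were lower at 4 h, 11 at 10 h and 10 at 18 h, and 1 was higher (Pcx, at 18 h), with medians of -0.21, -0.64 and -0.74. Those counts were the same without the third NCFM 4 h array. Idh3a, a catalytic subunit of isocitrate dehydrogenase, read 899 to 1766 in control and 343 to 514 in NCFM cells at 10 h and 774 to 1731 against 281 to 344 at 18 h. The ranges were separate, with changes of -1.63 ± 0.36 (adjusted p = 0.00629) and -1.94 ± 0.36 (adjusted p = 0.00225). Fumarase (Fh1) also fell at 10 h (-1.81) and 18 h (-1.80). Of 12 genes for cytochrome c, carriers and channels, out of 13, 0 were lower at 4 h and 7 at 10 and at 18 h, with 1 higher at each time. Slc25a5, an ADP/ATP carrier, fell at 10 h (-0.72) and 18 h (-1.16), and Gpd2, which feeds electrons to ubiquinone, rose at 10 h (1.12). Its 4 h change was 1.04 (adjusted p = 0.0241), the 1 higher call of the list at that time, and without the third NCFM 4 h array it was 0.80 and did not pass (adjusted p = 0.0936), leaving 0. Cytochrome c itself (Cycs) had -0.03, 0.75 and 0.66, which did not pass with all arrays and did without the third NCFM 4 h array, at 10 h (adjusted p = 0.0127) and 18 h (adjusted p = 0.0233).

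Of 18 genes for mitochondrial biogenesis and mitochondrial DNA, 6, 10 and 7 were lower and 0, 0 and 1 higher at 4, 10 and 18 h, or 7, 11 and 8 lower without the third NCFM 4 h array. Ppargc1b, a coactivator of respiratory genes, read 580 to 936 in control and 253 to 388 in NCFM cells at 4 h, and 1029 to 1038 against 244 to 334 at 10 h. The ranges were separate, and Ppargc1b fell at both times (-1.31 ± 0.29, adjusted p = 0.00849, and -1.87 ± 0.33, adjusted p = 0.00147) but did not pass at 18 h (-0.28, adjusted p = 0.589). The 4 h call stood without the third NCFM array (-1.20, adjusted p = 0.0337). Tfam, which packages mitochondrial DNA, and Gabpa fell at 10 h (-0.51 and -0.63) and 18 h (-0.66 and -0.82). Of the factors whose motifs were searched in the promoters, Nrf1 was the 1 higher gene (0.24 at 18 h, adjusted p = 0.0325) and Yy1 fell at 10 h (-0.49, adjusted p = 0.0411). The enzymes that make itaconate and nitric oxide rose: Acod1 by 2.60, 2.52 and 2.66 at 4, 10 and 18 h, and Nos2 by 3.37 at 10 h and 3.71 at 18 h, while Nos2 at 4 h had 1.33 (adjusted p = 0.0611).

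Where a member had several probe sets above the dim limit, they mostly moved alike. In 41 such genes the probe sets had the same sign in 41 genes at 4 h, 39 at 10 h and 37 at 18 h, and the median range between probe sets of a gene was 0.14, 0.13 and 0.12 log2. Other scalings of the arrays moved the split of calls among all genes: lower genes made up 71.2%, 66.7% and 68.8% of calls at 4, 10 and 18 h as deposited, 58.1%, 50.1% and 51.4% after quantile normalization, and 49%, 84.3% and 75.8% after centring on the spike-in controls. Spike-in centring moved the median of all genes by -0.12 log2 at 10 h, and by less than 0.1 at 4 and 18 h. Among the members, lower calls outnumbered higher ones under each of these, with 8, 19 and 18 lower after quantile normalization and 4, 24 and 21 after spike-in centring.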

How the data were processed

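Gene expression was measured in 16 samples of mouse dendritic cells on 1-colour arrays with biotin-labelled RNA, per the labels' protocols. The deposited values are linear intensity values, 1 per probe set and array; they were normalized between arrays by the authors before they were deposited, as their nearly equal medians show, by a method not given in the sources used here. Log2 intensities of the brightest probe set naming 1 gene were used, and 10 probe sets that name a member together with other genes were not. A limma 3.58.1 fit in R 4.3.3 estimated 6 group means with 10 residual degrees of freedom; p-values were adjusted by Benjamini-Hochberg over all 18193 genes and called at 0.05. The number of arrays limits the precision. Arrays of the same number tended to deviate together. Deviations from group means correlated at 0.19 to 0.75 in 36 pairs of the same number (median 0.42). In 70 other pairs the correlations ran from -0.75 to 0.73 (median -0.32). Deviations within a group cancel out, so these correlations are not independent. The labels do not say what the number stands for. The main fit does not use it, and a fit blocked on it is given as an alternative. Alternatives covered scaling, background, probe set choice, fit, block and each array left out.

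Core subunits, isoforms and paralogues, the 3 lowest and the highest change of a complex, and members called between times could be named; others are named as chosen after their values were seen. The members and lists were chosen with earlier results of these data known. The code was tested on simulated data. Promoters come from RefSeq (GRCm38.p6).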

Additional observations from a re-analysis of the deposited data

Results flagged for a closer look

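In 2 members the difference between NCFM and control cells itself differed between 4 and 18 h in the limma fit. Cox8c, an isoform of a complex IV subunit, was further above control at 18 h, by 0.66 log2 (adjusted p = 0.0147), with all 3 NCFM arrays above both control arrays at 18 h. That call was lost when all probe sets of a gene were averaged and without the second control array at 18 h. Ndufv1, the NADH-binding subunit of complex I, was further below control at 18 h, by -0.69 log2 (adjusted p = 0.0486). That call was lost in 17 of 27 alternatives, 13 of which leave out 1 array.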

How the results depend on the processing

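The lower direction of the members' median at 4, 10 and 18 h held under all alternatives run, and no called value changed sign. Counts that moved were at 4 h (9 lower) 4 with spike-in centring, 22 with array weights and 4 with only the groups compared, and at 10 h (21 lower) 32 with only the groups compared. Between 10 and 4 h (0 called) they were 2 with spike-in centring and 1 with array weights. Between 18 and 4 h (2 called) they were 1 after quantile normalization, 0 when the probe sets of each gene were averaged, 1 with the background subtracted and 1 with the trended, robust fit. In NCFM cells, 18 against 4 h (10 called), they were 6 with the trended fit, 20 with array weights and 6 with only the groups compared. The cause was not tested, and the shares of all genes called under these alternatives are not given here.

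With the replicate number as a block, 28 members were lower at 4 h, 1 was called between 10 and 4 h and 7 between 18 and 4 h, and no other count moved by more than 1.5 times. With the block and the third NCFM 4 h array left out, 21, 56 and 36 were lower at 4, 10 and 18 h, and the 4 h median was -0.28. In that fit 6 were called between 18 and 4 h and 27 in NCFM cells between these times. The shares of all genes called in that fit are not given here, so these counts alone do not set the members apart.

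With each array left out in turn, 1 (without control 4 h replicate 2) to 18 (without NCFM 4 h replicate 1) members were lower at 4 h, with a median of -0.99 to -0.21. At 10 h 6 (without control 10 h replicate 1) to 47 (without NCFM 4 h replicate 3) were lower, and at 18 h 7 (without control 18 h replicate 1) to 34 (without NCFM 4 h replicate 3). Between 10 and 4 h the median ran from -0.33 to 0.32, and between 18 and 4 h from -0.15 to 0.45 with 1 to 2 members called. In NCFM cells 3 (without NCFM 18 h replicate 2) to 17 (without NCFM 4 h replicate 3) were called between 18 and 4 h. With 2 control arrays at 10 and 18 h, leaving out 1 assumes that the other varies like the remaining groups. Of the fits with 1 array left out, shares of all genes are given above only for that without NCFM 4 h replicate 3. Calls of 7 members at 10 h (Atp5c1, Cox7a2l, Cox8c, Ndufs7, Ndufv1, Sdha and Sdhd) and 6 at 18 h (Cox7c, Cox8c, Ndufs1, Ndufv1, Sdha and Sdhc) held in every alternative. Those of Cox8c came from its probe set with the suffix x or from the mean of its probe sets. Its other probe set had 0.18 at 10 h and 0.13 at 18 h. It did not pass in the limma fit over probe sets (adjusted p = 0.172 and 0.352), so the rise of Cox8c remains uncertain. For 9 members the signal of the probe set used was dim, which limits them.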
